A study of Canis lupus familiaris with 22 samples.

Results

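KRT14, KRT19, PGR, ERBB2 and PROM1, which code for keratins and receptors or surface proteins of the mammary epithelium, were followed across malignant mammary tumours, benign mammary tumours and healthy mammary tissue of dogs. A member was every array probe, other than controls, whose target is a canine RefSeq transcript of these genes. The rule found 6 probes of 5 genes among 43603 probes, of which 2353 probes and 1458 genes carry a symbol. KRT14 is represented by 2 probes designed to the same transcript, called here the brighter and the dimmer probe, and each of the other genes by 1 probe. All 6 probes were well above background on all 19 arrays with scanner values, and all 6 were tested.

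The tumours were spontaneous mammary tumours removed by surgery, and the healthy tissue was mammary tissue of dogs without a tumour. Total RNA of each tissue was labelled with Cy3 and hybridised to 1-colour Agilent canine arrays, so that the brightness of a spot follows the amount of its transcript in the whole tissue piece. The titles name 12 arrays of 6 malignant dogs, 6 arrays of 3 benign dogs and 4 arrays of 2 healthy dogs, of which 9 arrays of 5 malignant dogs and every benign and healthy array had scanner values to analyse. Each number in a title was taken as 1 dog, its arrays a and b were averaged because the methods state duplicate arrays for each sample, and n counts dogs. The protocol in the labels instead calls them biological duplicates, and the number of dogs in the methods differs from that in the titles. No group carries an allele or a treatment in the labels, and neither the labels nor the methods give the age, the breed or the stage of the oestrous cycle of a dog. The malignant group joins tumours of different histological types. The histology list has codes worded like the titles. Its first malignant codes are malignant 1 tubuloacinar solid carcinoma, malignant 2 papillary and squamous mixed, and malignant 3 myoepithelioma. Then follow malignant 4 squamous cell carcinoma, malignant 5 lipid rich carcinoma and malignant 6 fibrosarcoma. Benign 1 and 2 are coded adenoma and benign 3 papillary adenoma. No source states that a code and a title name the same tumour.

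The mammary gland is built of ducts and alveoli with an inner layer of luminal cells and an outer layer of basal, contractile myoepithelial cells. KRT14 is a keratin of the basal layer and of stratified epithelia such as skin, and KRT19 is a keratin of luminal and other simple epithelia. PGR is the nuclear receptor of progesterone, a hormone that in the dog also induces mammary production of growth hormone, ERBB2 (HER2) is the receptor tyrosine kinase of the EGF receptor family that is amplified in a subset of human breast cancers, and PROM1 (CD133) is a glycoprotein of membrane protrusions found on luminal cells and used as a stem cell marker.

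Levels are given as log2 of the processed signal minus the 75th percentile of the same array, so that 0 is the 75th percentile and a step of 1 is a doubling. The share of probes well above background ranged from 63.7% to 76.4% over malignant, from 71.5% to 83.2% over benign and from 62.2% to 71.4% over healthy arrays. The arrays lay on 6 slides, and malignant dog 5, with 1 array, shared neither its slide nor its scan day with any other array analysed. The healthy samples went against their label in their marker genes. Of 7 exocrine pancreas genes with a probe, all 7 were lower in both kinds of tumour than in healthy tissue and 6 were called by limma in each comparison. The log2 of the summed levels of these genes was 10.06 and 12.18 in the healthy dogs, 0.702 to 1.84 in malignant and 1.01 to 1.79 in benign dogs. Every comparison with healthy tissue below therefore sets tumours against 2 samples that carried pancreatic transcripts, and pancreatic duct epithelium is itself known to contain KRT19 and PROM1. The part of these transcripts in the levels of the 5 genes was not tested. In whole tissue, fewer cells of a type and less RNA per cell cannot be told apart.

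The basal keratin KRT14 varied widely inside both groups of tumours, and their means lay within 0.55 of the healthy mean with the brighter probe. With the brighter probe the malignant dogs 1 to 5 had levels of 6.24, 5.99, 2.99, 7.34 and 0.855, the benign dogs 1 to 3 had 4.87, 1.79 and 8.37, and the healthy dogs had 3.92 and 5.002. Benign dog 3 and malignant dog 4 were highest, malignant dog 5 and benign dog 2 were lowest, and both healthy dogs lay inside the range of either tumour group. The range over 10 dogs was 183-fold, while the arrays a and b of a dog differed by at most 0.128. None of the 9 gaps between neighbouring dogs in the order was within that largest difference between arrays of a dog. The mean level was 4.68 ± 2.68 (SD, n = 5) in malignant, 5.01 ± 3.29 (SD, n = 3) in benign and 4.46 ± 0.767 (SD, n = 2) in healthy dogs.

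The dimmer KRT14 probe gave the same order of dogs except for malignant dog 2. Its levels were 6.10, 2.35, 1.28, 7.21 and -0.137 in malignant dogs 1 to 5, 4.59, 0.766 and 8.11 in benign dogs 1 to 3, and 3.49 and 4.72 in the healthy dogs. In 6 of the 10 dogs the brighter probe exceeded the dimmer probe by 0.133 to 0.423 on the log2 scale. The difference was 0.993 in malignant dog 5 and 1.02 in benign dog 2, which had the lowest levels, 1.71 in malignant dog 3, and 3.63, or 12.4-fold, in malignant dog 2. Malignant dog 2 was thus 4th from the top with the brighter probe and 7th with the dimmer probe, and its level was above both healthy dogs with the former and below both with the latter. The table of unprocessed spot signals gave 3.59 for the same difference in malignant dog 2. Keratin genes of the type I cluster, where KRT14 lies beside KRT16 and KRT9, resemble each other in sequence, and the targets of the probes could not be checked against the other keratins here, so the KRT14 level of malignant dog 2 is uncertain.

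**Figure D1:**
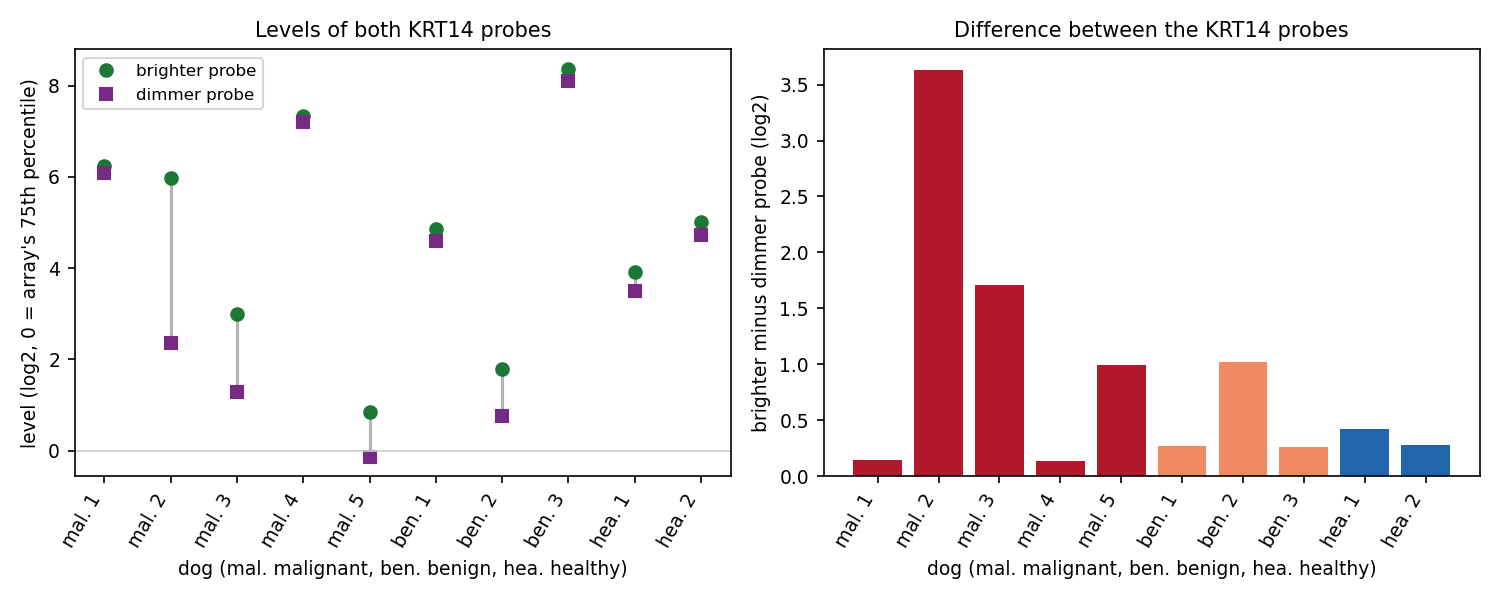
Levels of the brighter and dimmer KRT14 probes (log2, 0 is the 75th percentile of an array) in each dog on the left, and the brighter minus the dimmer probe (log2) on the right, with bars in red for malignant, orange for benign and blue for healthy dogs. Both probes lay within 0.423 of each other in 6 dogs, and the difference was 3.63 in malignant dog 2.

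KRT19 had the widest range of the 6 probes. The levels in malignant dogs 1 to 5 were 5.17, 6.07, 1.20, 6.31 and -3.56, those in benign dogs 1 to 3 were 6.67, 3.95 and 2.21, and those in the healthy dogs were 3.34 and 5.19. Malignant dog 5 was the lowest, 4.76 below the next dog, and malignant dog 3 was next, while malignant dogs 2 and 4 and benign dog 1 lay above both healthy dogs. The 10 dogs spanned 1200-fold, and 5.47 on the log2 scale without malignant dog 5. The SD of 3.11 over all dogs was above that of 99.7% of the 22940 probes well above background on every array, whose median SD was 0.691. In the order of levels, the pair malignant 4 and malignant 2 and the pair healthy 2 and malignant 1 differed by no more than the 0.251 that separated arrays of 1 dog at most.

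Malignant dogs 5 and 3, the lowest for KRT19, stood apart in some markers of other tissues. In malignant dog 5 the log2 of the summed levels of 4 adipose genes was 5.71, against -0.176 to 1.82 in the other 9 dogs, with levels of 4.12 for ADIPOQ (adiponectin) and 5.09 for PPARG (the regulator of fat cell differentiation). The other 2 adipose genes were not high there, with -0.464 for LEP (leptin), inside the range of the other dogs, and -5.83 for UCP1, the lowest of all dogs. In the same dog CDH1, which codes for the epithelial adhesion protein E-cadherin, was at -0.689, and in malignant dog 3 it was at -0.55, against 2.65 to 4.20 in the other 8 dogs. Other luminal genes were mixed. TJP1, of tight junctions, was the highest of all dogs in malignant dog 5 at 3.09 and the lowest in malignant dog 3 at -0.162. MUC1 at -7.28 and OCLN at -7.35 were the lowest of all dogs in malignant dog 5, but not in malignant dog 3. CLDN3, KIT and CEACAM1 lay inside the range of the other dogs in malignant dogs 5 and 3. Malignant dog 3 had the highest sum of 5 fibroblast and stroma genes, 10.9 against 6.06 to 10.2 in the others. The collagen genes COL1A1 and COL1A2, at 8.70 and 10.24, and PDGFRB, at -0.302, were the highest of all dogs there. DCN (decorin) at 5.87 and VIM (vimentin) at 7.60 lay inside the range of the other dogs. The part of fat and stroma in the keratin levels was not tested.

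PGR was the only 1 of the 6 probes whose malignant and healthy dogs did not overlap. The levels were -0.89, -0.645, -3.88, -2.45 and -4.13 in malignant dogs 1 to 5, 2.54, -0.613 and -1.48 in benign dogs 1 to 3, and -0.498 and 0.778 in the healthy dogs. All 5 malignant dogs lay below both healthy dogs, but malignant dog 2 was 0.147 below healthy dog 1, less than the largest difference of 0.267 between arrays of 1 dog. The benign dogs spanned both sides, with benign dog 1 at the top of all 10 dogs and benign dogs 2 and 3 below both healthy dogs. Benign dog 2 was 0.115 below healthy dog 1, also less than that largest difference between arrays. The mean was -2.40 ± 1.63 (SD, n = 5) in malignant, 0.149 ± 2.11 (SD, n = 3) in benign and 0.14 ± 0.902 (SD, n = 2) in healthy dogs. The log2 fold change of malignant against healthy tissue was -2.54 (standard error 1.21, 95% interval -5.22 to 0.137), with an adjusted p of 0.863 from limma. The exact two-sided permutation test over dogs gave p = 0.0952, which is the smallest value that a separation of 5 from 2 dogs gives when the mirrored regrouping counts too. Of all 35310 probes tested, 2.83% had every malignant dog below both healthy dogs.

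Malignant dog 6, whose scanner values were not analysed here, did not follow the other malignant dogs. In the table of unprocessed spot signals, which holds all 11 dogs and was scaled in the same way, it had a PGR level of 0.876, above the healthy dogs at -0.359 and 0.81. With that dog the log2 fold change was -1.47 (adjusted p = 0.987 from limma), and -1.90 without it in the same table.

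Against benign tumours, PGR differed by -2.55 on the log2 scale in malignant tumours (standard error 1.06, 95% interval -4.89 to -0.213). Its unadjusted p from limma was 0.0352 and its adjusted p 1, and the exact permutation test over dogs gave p = 0.107, where the smallest possible value is 0.0179 for a single regrouping. Without benign dog 1 the log2 fold change was -1.36. The groups overlapped, since malignant dogs 1 and 2 lay between benign dogs 2 and 3. Benign and healthy tissue differed by 0.009 on average, with a 95% interval of -2.91 to 2.93.

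ERBB2 was the least variable of the 6 probes. Its levels were -0.11, -0.111, 0.635, 0.181 and -0.923 in malignant dogs 1 to 5, 0.293, -0.106 and -0.312 in benign dogs 1 to 3, and 0.588 and -0.088 in the healthy dogs. The 10 dogs spanned 2.94-fold, and 8 of the 9 gaps between neighbours in the order were within the 0.42 by which arrays of 1 dog differed at most, so that only malignant dog 5 stood apart, at the bottom. The SD of 0.455 was above that of 14.8% of the 22940 probes compared. No dog had a level that stood above the others by more than the difference between arrays. The log2 fold change was -0.315 in malignant (95% interval -1.42 to 0.794) and -0.291 in benign tumours (95% interval -1.50 to 0.919) against healthy tissue, and -0.024 between malignant and benign tumours (95% interval -0.991 to 0.943).

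PROM1 was highest in tumours and lowest in a healthy dog. The levels were -1.16, 0.106, -2.62, 1.40 and -1.995 in malignant dogs 1 to 5, 2.63, -0.107 and -1.02 in benign dogs 1 to 3, and -3.20 and -0.721 in the healthy dogs. Benign dogs 1 and 2 and malignant dogs 2 and 4 lay above both healthy dogs and the other 4 tumours lay between them, so that no tumour was below both. The healthy dogs differed by 2.48 from each other. Benign exceeded healthy tissue by 2.46 on the log2 scale, with a 95% interval of -0.494 to 5.41 (adjusted p = 0.782 from limma, exact permutation p = 0.3). Leaving out healthy dog 1 lowered it to 1.22, and leaving out the other healthy dog raised it to 3.70. For malignant tumours the difference was 1.104 with a 95% interval of -1.60 to 3.81 (adjusted p = 0.956 from limma), and without healthy dog 1 it was -0.134.

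**Figure D2:**
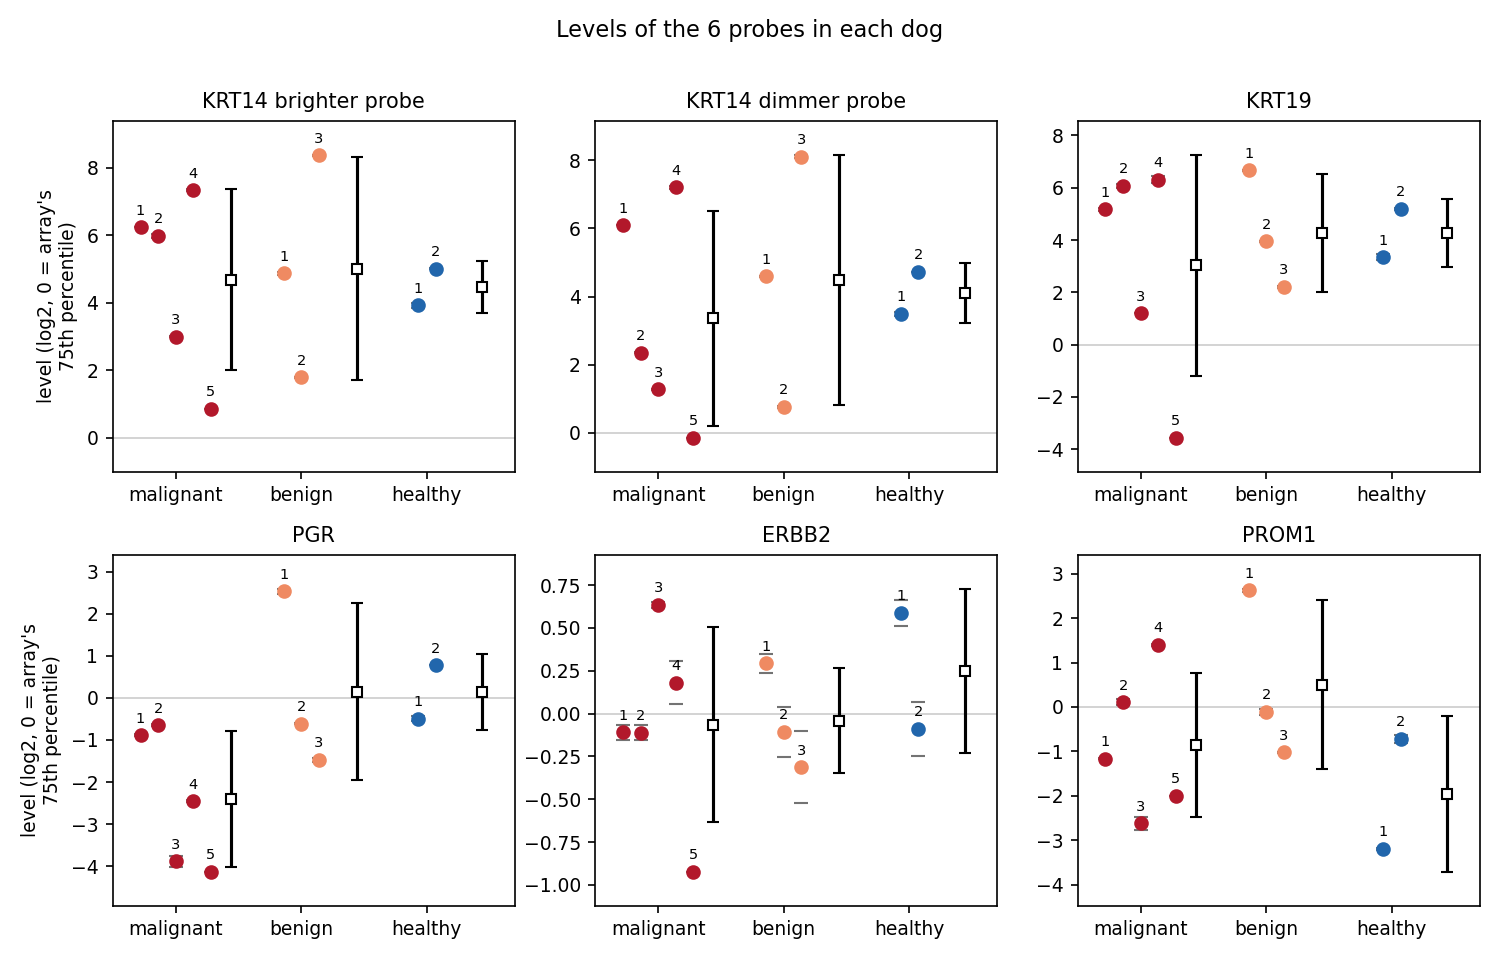
Level (log2 relative to each array's 75th percentile) of the 6 probes in each dog, with filled points for dogs marked by their number, grey dashes for the arrays a and b of a dog, and open squares with bars for the mean and SD of a group. The malignant dogs plotted lay below both healthy dogs for PGR, a separation that 2.83% of all probes tested had. The groups overlapped for the other 5 probes. Malignant dog 6, without scanner values analysed, is not plotted.

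Set side by side, 0 of the 6 probes were called in malignant tumours against healthy tissue at an adjusted p of at most 0.05 from limma, where 0.416% of the 35310 probes were called, and 0 of 6 were at an unadjusted p of at most 0.05, where 5.81% of all probes were. In benign tumours against healthy tissue 0 of 6 were called, where 0.379% of all probes were called, and 0 of 6 had an unadjusted p of at most 0.05, against 6.79% of all probes. Between malignant and benign tumours 0 of 6 were called, where 0% of all probes were called, and 1 of 6, PGR, had an unadjusted p of at most 0.05, against 1.8% of all probes. No probe had malignant dogs all above both healthy dogs, where 4.26% of all probes did. In benign against healthy dogs 0 of 6 probes were without overlap, where 11.1% of all probes were lower and 12.4% higher without overlap. In malignant against benign dogs 0 of 6 were without overlap, where 0.912% of all probes were lower and 1.03% higher.

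The intervals show how little the number of dogs could settle. For KRT19 the log2 fold change of malignant against healthy tissue was -1.23 with a 95% interval of -6.44 to 3.99, and for the brighter KRT14 probe it was 0.222 with an interval of -3.90 to 4.34. The dimmer KRT14 probe had -0.75 in the same comparison, so that the probes of KRT14 differed in sign. Benign against healthy tissue gave 0.014 for KRT19 (95% interval -5.68 to 5.71) and 0.55 for the brighter KRT14 probe (95% interval -3.95 to 5.05). With 3 benign and 2 healthy dogs the smallest exact p is 0.1 for a single regrouping and 0.2 when the mirrored one counts too. Leaving out malignant dog 5 turned KRT19 to 0.425 against healthy and to 0.411 against benign tissue.

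**Figure D3:**
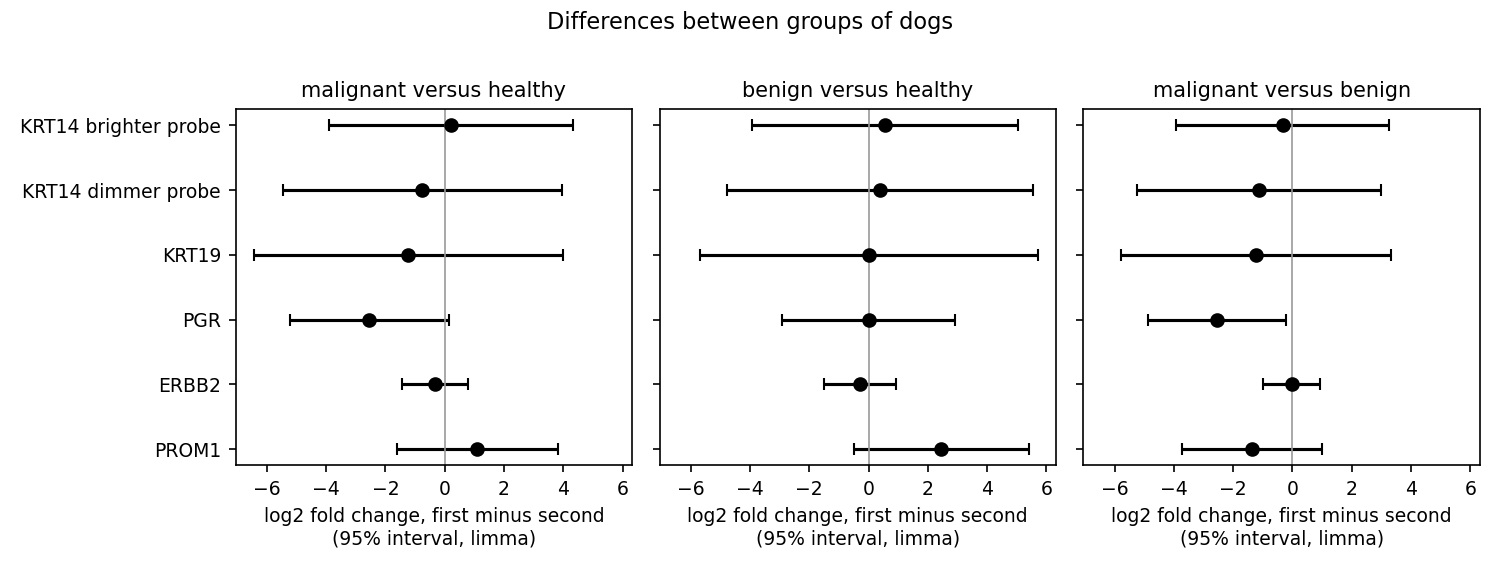
Log2 fold change with its 95% interval from limma for the 6 probes in malignant versus healthy, benign versus healthy and malignant versus benign dogs. Of the 18 intervals, that of PGR in malignant versus benign dogs, -4.89 to -0.213, does not cross 0.

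Slides that held arrays of more than 1 group gave values within a slide. PGR was lower on malignant than on healthy arrays of all 3 such slides, by -0.974, -0.329 and -3.26, and lower on malignant than on benign arrays of all 4, by -3.46, -2.07, -2.96 and -1.72. On the same 3 slides the malignant arrays exceeded the healthy ones by 0.918 to 2.24 for KRT19 and by 1.73 to 2.32 for the brighter KRT14 probe. These slides did not hold malignant dogs 3 and 5, which had the lowest keratin levels of the malignant group, next to healthy arrays. PROM1 was higher on the benign arrays of both slides shared with healthy arrays, by 4.61 and 1.45. Each slide held 1 to 2 arrays of a group, and arrays of the same dogs recur on different slides, so the slides are not separate replicates and no test was made.

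Malignant dog 6, measured in the table of unprocessed spot signals, had high keratin levels. In that table its levels were 6.01 for KRT19, 6.55 for the brighter and 6.27 for the dimmer KRT14 probe, -0.685 for ERBB2 and 0.083 for PROM1. It was 3rd from the top of 11 dogs for both keratins, 2nd for PGR and 10th for ERBB2. Both arrays of malignant dog 5 in that table gave the lowest KRT19 level, -2.65 and -2.49, and the lowest PGR level, -2.78 and -2.69, among the 11 dogs. The table has no background subtracted, which draws low levels up.

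Across the 10 dogs the luminal keratin KRT19 and PROM1 went together by rank. Their Pearson correlation was 0.65 (permutation p = 0.0416, adjusted p = 0.208 over 10 pairs of genes) and their Spearman correlation 0.842 (permutation p = 0.00381, adjusted p = 0.0381). Without malignant dogs 5 and 3, the farthest from the median of KRT19, r was 0.728. KRT19 and PGR had r = 0.725 (permutation p = 0.0166, adjusted p = 0.166) and rho = 0.60 (permutation p = 0.0724, adjusted p = 0.362), and r fell to 0.332 without the same pair of dogs, so that the relation rests on them. KRT14, by its brighter probe, and KRT19 had r = 0.59 (permutation p = 0.0691, adjusted p = 0.23) and rho = 0.455 (permutation p = 0.191, adjusted p = 0.615). Without malignant dog 5 and benign dog 3, r was 0.706, and without malignant dog 5 alone it was 0.262. With the dimmer KRT14 probe over all 10 dogs, an alternative chosen after seeing the data, r was 0.517. Of the 10 pairs, KRT19 with PROM1 by rank was the 1 with an adjusted p of at most 0.05. Pearson and Spearman values were adjusted separately, each over the 10 pairs and not over both kinds together. By Pearson correlation no pair reached that threshold. The slides held too few dogs to repeat the correlations within a slide.

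**Figure D4:**
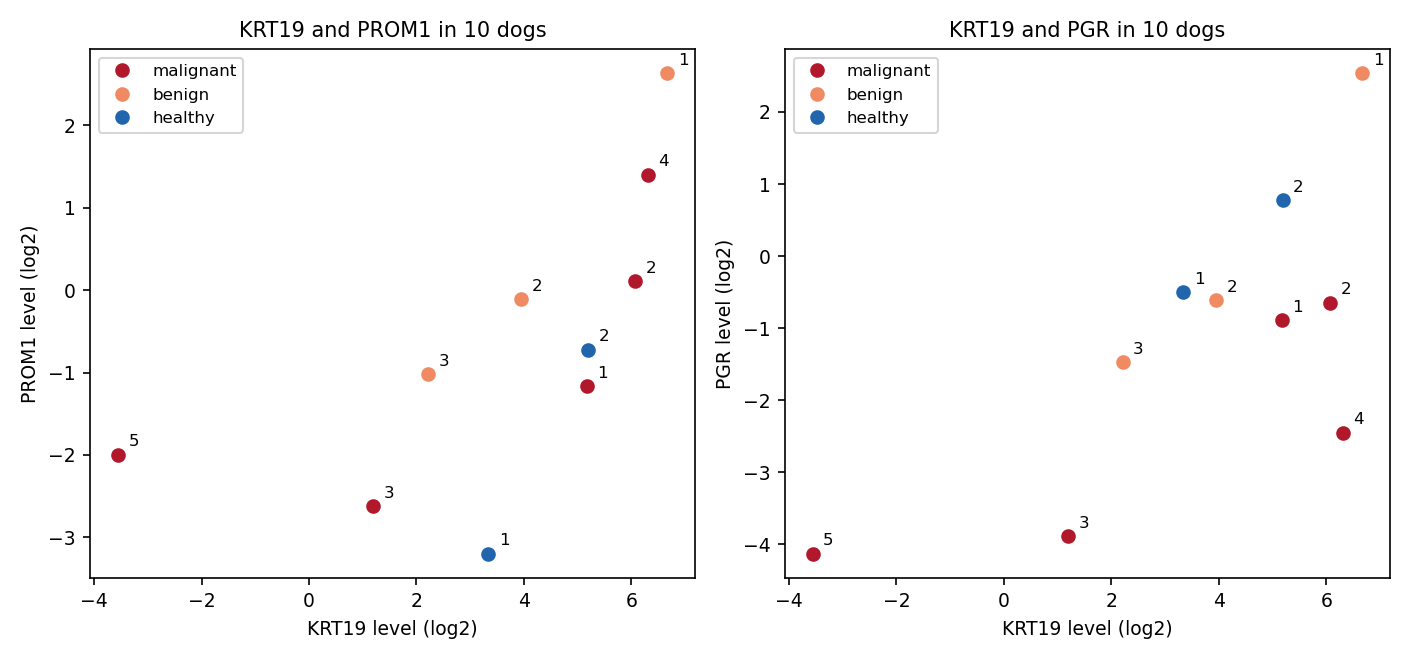
KRT19 level on the horizontal axes against the PROM1 level on the left and the PGR level on the right, both log2, with 1 point for each of 10 dogs marked by its number. Benign dog 1 was at the top right of both plots, and malignant dogs 5 and 3 were at the bottom left of the PGR plot.

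The genes whose levels over the 10 dogs were most like each member were sought among 889 genes with a symbol and a probe well above background on every array, as a description in which all genes share the same arrays and scaling. For KRT14, by its brighter probe, they were PI3 (r = 0.935) and SLPI (r = 0.903), which code for the protease inhibitors elafin and secretory leukocyte peptidase inhibitor of surface epithelia, and GPX2 (r = 0.871), a glutathione peroxidase. All 3 were highest in benign dog 3, like KRT14. For KRT19 they were the glutamate transporter SLC1A1 (r = 0.911), KITLG (r = 0.901), which codes for the ligand of the KIT receptor, and FXYD6 (r = 0.895), and without malignant dog 5 their correlations were 0.738, 0.818 and 0.637. For PGR they were RAB27A (r = 0.84), BCHE (r = 0.822) and CTSC (r = 0.818), all highest in benign dog 1. For ERBB2 they were CYP2C18 (r = 0.935), SLC3A2 (r = 0.919) and NPC1L1 (r = 0.911), all highest in malignant dog 3, and for PROM1 they were RING1 (r = 0.797), KITLG (r = 0.786) and LTF (r = 0.782), which codes for the milk protein lactoferrin.

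The wider lists to which the members belong were described by the brightest probe of each gene with a symbol. None of their genes was called in any comparison. Of the keratins, 7 had a probe and 6 were tested. In malignant against healthy tissue 2 were higher and 4 lower, with a median log2 fold change of -0.821 where that of all probes was 0.07. KRT15, a basal keratin next to KRT19 in the genome, had levels of 6.76, 3.04, 2.65, 7.79 and -7.30 in malignant dogs 1 to 5, 5.60, 1.86 and 6.51 in benign dogs 1 to 3, and -0.107 and 4.58 in the healthy dogs. Like KRT14 and KRT19 it was lowest in malignant dog 5. KRT1, a keratin of cornifying epidermis, was at 6.10 in malignant dog 4 and 3.61 in healthy dog 2. In the other 8 dogs it was at most -3.04. Its log2 fold change was -2.05 in malignant and -3.95 in benign tumours (adjusted p = 0.975 and 0.918 from limma). KRT1 was well above background on 4 of 9 malignant, 2 of 6 benign and 2 of 4 healthy arrays, so that its low levels are near the background. KRT2, of the same layer, was at 2.98 in malignant dog 4, 1.22 in healthy dog 2 and at most -2.11 in the others. It was well above background on 8 of 9 malignant, 5 of 6 benign and 2 of 4 healthy arrays. The log2 fold change of KRT2 was -2.27 for benign against healthy and 1.85 for malignant against benign tumours (adjusted p = 0.907 and 1 from limma). KRT71, a keratin of the hair follicle, was well above background on 0 of 9 malignant, 2 of 6 benign and 2 of 4 healthy arrays. Its levels were -5.54 and -3.89 in the healthy dogs, with malignant dogs 3 and 5, at -5.305 and -5.313, between them. The log2 fold change of malignant against healthy tissue was -1.495 (limma's adjusted p = 0.938), from levels largely near the background.

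Of 6 basal and myoepithelial genes, 5 were higher and 1 lower in malignant than in healthy tissue, with a median log2 fold change of 0.318, and 3 were higher and 3 lower in benign tissue, with a median of 0.175 where that of all probes was 0.025. SNAI2, a transcription factor of basal cells and mesenchyme, had log2 fold changes of 2.97 in benign (adjusted p = 0.675 from limma) and 1.89 in malignant tumours (adjusted p = 0.898 from limma). Its levels were 0.749 to 2.78 in benign dogs and -3.05 and 0.744 in the healthy dogs. OXTR, the oxytocin receptor of myoepithelial cells, differed by 0.806 in malignant against healthy tissue (adjusted p = 0.956 from limma). The log2 of the summed levels of the 6 genes was highest in benign dog 3 at 8.43 and malignant dog 4 at 7.45 and lowest in malignant dog 3 at 3.96.

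Of 9 luminal genes, 4 were higher and 5 lower in malignant than in healthy tissue (median -0.099), and 6 were higher and 3 lower in benign than in healthy tissue (median 0.033). CLDN3, a tight junction claudin, differed by -2.86 in benign and by -1.21 in malignant tumours from healthy tissue (adjusted p = 0.747 and 0.955 from limma). OCLN (occludin), also of tight junctions, had -1.48 and -1.82 (adjusted p = 0.929 and 0.949 from limma), and CDH1 differed by -1.41 between malignant and benign tumours (adjusted p = 1 from limma). The summed level of the 9 genes was highest in benign dog 1 at 7.06 and lowest in malignant dogs 3 and 5 at 2.64 and 3.36. The same pair of dogs was lowest for PGR.

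Of 10 hormone receptor genes, 7 were higher and 3 lower in malignant than in healthy tissue (median 0.441), with PGR among the lower ones. ESR1, which codes for oestrogen receptor alpha and drives PGR expression in many tissues, had levels of -7.26, -1.07, -3.62, -6.76 and -1.85 in malignant dogs 1 to 5, -1.61, -4.95 and -7.71 in benign dogs 1 to 3 and -6.52 and -3.41 in the healthy dogs. It was well above background on 5 of 9 malignant, 4 of 6 benign and 2 of 4 healthy arrays, so that its lowest levels are near the background. Malignant dog 5, the lowest for PGR, was among the highest for ESR1. PPARD, a nuclear receptor of fatty acids, had log2 fold changes of 1.54 in malignant and 1.73 in benign tumours, with all tumours above both healthy dogs (adjusted p = 0.842 and 0.704 from limma). Of all probes tested, 4.26% had every malignant dog and 12.4% every benign dog above both healthy dogs. PPARD was well above background on every tumour array and on 3 of 4 healthy arrays. TSHR, the thyrotropin receptor, had -2.28 and -3.01 (adjusted p = 0.947 and 0.832 from limma), but was well above background on 1 of 9 malignant, 2 of 6 benign and 3 of 4 healthy arrays, and malignant dog 5 at -0.721 was above both healthy dogs. PPARG had 1.69 in malignant tumours (adjusted p = 0.955), with a level of 5.09 in malignant dog 5 and of at most 0.526 in the other 9 dogs. GHR, the growth hormone receptor, had -1.07 in benign tumours (adjusted p = 0.957 from limma).

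Of 7 genes of the progesterone and growth hormone axis, 2 were higher and 5 lower in malignant than in healthy tissue (median -0.54) and 3 were higher and 4 lower in benign than in healthy tissue (median -0.051). GH1, which codes for growth hormone, was at 2.08 in healthy dog 2 and at -6.87 in healthy dog 1, and its log2 fold change was -2.67 in malignant tumours against healthy tissue (adjusted p = 0.946 from limma) and -2.81 against benign tumours. GH1 was well above background on 6 of 9 malignant, 6 of 6 benign and 2 of 4 healthy arrays. CCND1, which codes for cyclin D1, had 1.37 in malignant tumours with 4 of 5 dogs above both healthy dogs (adjusted p = 0.865 from limma) and 0.659 in benign tumours. PRL, which codes for prolactin, was well above background on 6 of 9 malignant, 3 of 6 benign and 0 of 4 healthy arrays, and differed by 1.02 between malignant and benign tumours. With healthy tissue set at the lowest signal well above background, malignant and benign tumours differed from it by -0.07 and -1.09. No excess over healthy tissue was thus shown.

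Of the ERBB receptors and ligands, ERBB2 and EGF had a named probe. EGF, the ligand of the EGF receptor, was well above background on 0 of 9 malignant, 3 of 6 benign and 4 of 4 healthy arrays, and in malignant tumours it was at least 12.7-fold lower (limma's adjusted p = 0.214). Its levels in the healthy dogs were 0.433 and -4.03, and the pancreas is also known to contain EGF, whose part here was not tested. Of 5 stem cell surface markers, 3 were higher and 2 lower in each kind of tumour than in healthy tissue. ALDH1A1, an aldehyde dehydrogenase, had -4.00 in malignant and -4.93 in benign tumours, with every tumour below both healthy dogs (adjusted p = 0.818 and 0.64 from limma). Of all probes tested, 2.83% had every malignant dog and 11.1% every benign dog below both healthy dogs. ALDH1A1 was well above background on 8 of 9 malignant, 4 of 6 benign and 4 of 4 healthy arrays. THY1 had 0.877 in malignant and 2.37 in benign tumours (adjusted p = 0.974 and 0.846 from limma).

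The 2 dogs with the most KRT14, benign dog 3 and malignant dog 4, had the highest sums of 8 squamous and epidermal genes, 6.36 and 6.58, followed by healthy dog 2 at 4.28, and the other 7 dogs lay between -1.10 and 2.32. In benign dog 3 the desmosomal genes DSG1 and DSG3 were at 2.34 and 3.61 and the skin protease inhibitor gene SPINK5 at 5.07. Other genes of the list were low in that dog, with -3.04 for KRT1, -3.36 for KRT2 and -3.50 for the desmosomal gene DSC1. Malignant dog 2, in which the KRT14 probes differed most, had the highest sum of 3 milk protein genes, 9.30 against -2.32 to 6.24 in the others, with 8.48 for CSN2 (beta-casein) and 8.04 for LALBA (alpha-lactalbumin). LTF, the remaining gene, was at 3.46 there, below benign dog 1 at 6.16, malignant dog 1 at 3.89 and malignant dog 4 at 3.64. Leukocyte genes summed to 3.37 to 4.27 in malignant and 4.17 to 4.97 in benign dogs, against 0.558 and 3.02 in the healthy dogs. None of these sums was tested for its part in the levels of the members.

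**Figure D5:**
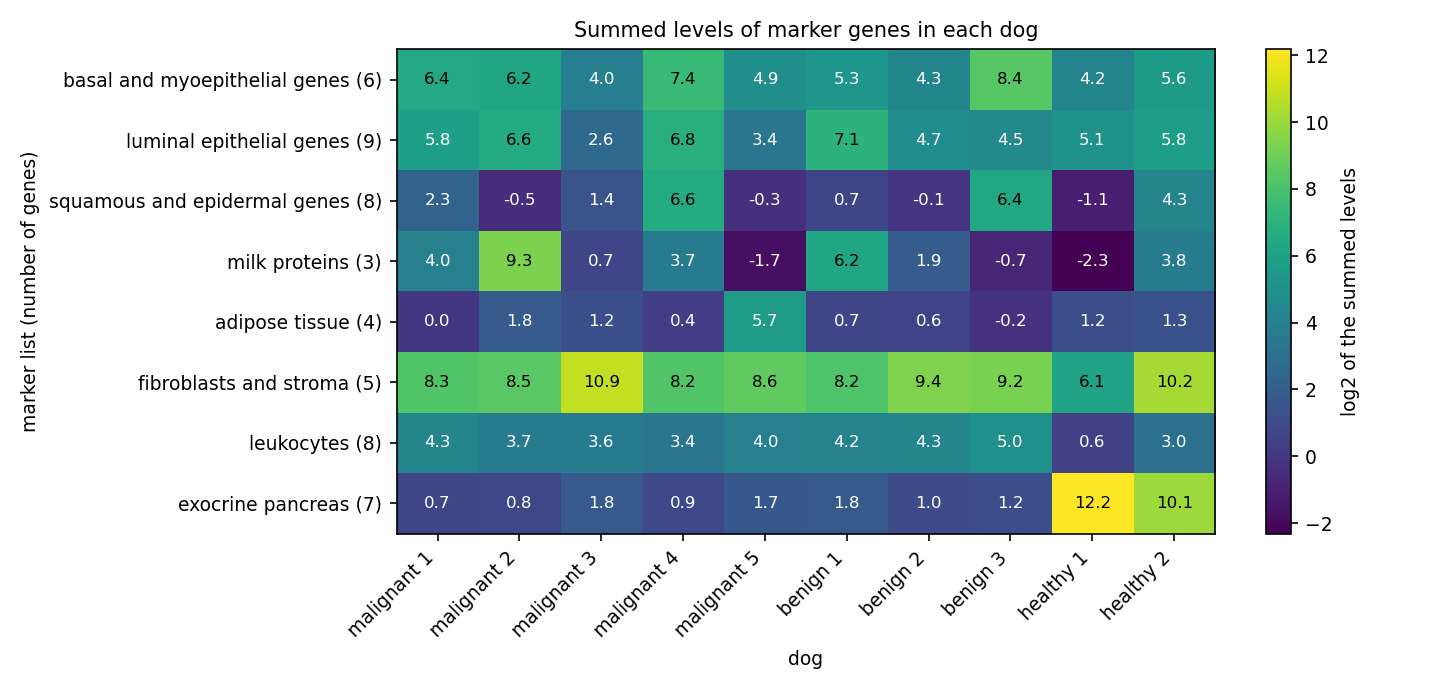
Log2 of the summed levels of 8 lists of marker genes (number of genes with a probe in brackets) in each of the 10 dogs, printed in each cell and shown by colour. The sum of exocrine pancreas genes was high in the healthy dogs, and that of squamous genes in malignant dog 4 and benign dog 3. That of adipose genes was high in malignant dog 5, and that of milk protein genes in malignant dog 2.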

How the data were processed

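The authors deposited scanner values, analysed here for 19 arrays (intensity on a linear scale, Agilent Feature Extraction 11.5.1.1 per the labels) and unprocessed median spot intensity of all 22 arrays, which equalled the scanner medians in all 45220 spots of each of 19 arrays. The processed signal has background subtracted and no scaling between arrays. It was turned to log2, outlier spots were left out, and the 75th percentile over probes other than controls was subtracted. Probes with several spots and arrays of a dog were averaged. No spot was saturated. The number of dogs limits the precision. The 35310 of 43603 probes well above background on at least 4 arrays entered 1 fit of 3 groups in limma 3.58.1 (R 4.3.3, data.table version 1.17.8). Benjamini-Hochberg adjustment ran over all these probes, with a threshold of 0.05. The fit was also run on simulated data in which only probes of less than median spread were changed. The members other than ERBB2 had a wide spread, so that run does not cover them. Single values were compared with two-sided exact permutation tests over dogs, and correlations with 100000 permutations. P-values measure the spread between these dogs.

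Symbols came from RefSeq transcripts listed for the assembly UU_Cfam_GSD_1.0, used for names and neighbours only. Genes were named by rule, namely the members, list genes called or otherwise among the 3 with the largest change, and the 3 genes most like each member. ESR1 and the marker genes given as examples were chosen after their values were seen. A bound sets a group with no array above background at the lowest signal well above background on each array. Members and lists were chosen with earlier results of these data known. Normexp, planned on mean signals, was run on median signals. Alternatives are given in the closing section. A gene that the rule names is not reported here. Gene sequences were not used here.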

Additional observations from a re-analysis of the deposited data

How the results depend on the processing

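Of 444 refitted values of members, 411 kept their direction and 33 changed sign, and of 54 within-slide values, which have no test, 32 kept and 22 changed their sign and 14 moved by more than 1 SD. No member was called under any setting. PGR was lower in malignant tumours in every refit, by -3.18 to -1.02 against healthy tissue and by -3.36 to -1.36 against benign tumours, and PROM1 in benign against healthy tissue ran from 1.22 to 3.70 over refits. Within slides the values ran from -3.26 to -0.329 and from -3.46 to -1.72 for PGR, and 1.45 and 4.61 for PROM1. The causes of the changes below were not tested. Calls over all probes, 147 in malignant and 134 in benign against healthy tissue, were 47 and 41 over probes well above background on every array, 88 and 81 with the brightest probe of a gene, 91 and 86 with the mean over probes of a gene, 37 in the latter comparison with only those groups fitted, and 32 and 0 with the methods' t-test after Benjamini-Hochberg adjustment. That test, run unpaired, had 1417, 1717 and 803 probes at its unadjusted threshold in malignant against healthy, benign against healthy and malignant against benign tissue, none of them a member. With the mean over probes, KRT14 in malignant against healthy tissue was -0.264.

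With slide as a fixed block, malignant against healthy tissue gave 0.229 for the dimmer KRT14 probe and 0.515 for KRT19, and malignant against benign tissue 0.646 for the brighter KRT14 probe, 0.382 for KRT19 and 0.191 for ERBB2. In that fit the slide term absorbs malignant dog 5, alone on its slide. Dogs of the same number are different animals, and their deviations correlated by -0.174 to 0.046, so the numbers pair nothing. With the dog number as a replicate block the calls were 89 and 85, with 1.14 for KRT19 in malignant against healthy, -0.033 for the dimmer KRT14 probe in benign against healthy, and 0.062 for the brighter KRT14 probe and 0.179 for ERBB2 in malignant against benign tissue.

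Leaving out 1 dog at a time gave 96 (healthy dog 1) to 950 (healthy dog 2) calls in malignant and 86 to 993 (the same dogs) in benign against healthy tissue, where a lone healthy dog is assumed to vary like the other groups, and 0 to 2 (benign dog 3) between tumours. For malignant against healthy tissue the brighter KRT14 probe ranged from -0.442 to 1.18, the dimmer from -1.71 to 0.124, KRT19 from -2.15 to 0.425, ERBB2 from -0.654 to 0.023 and PROM1 from -0.134 to 2.34. For benign against healthy tissue the ranges were -1.13 to 2.16, -1.43 to 2.24, -1.18 to 1.05 for KRT19, -1.18 to 0.822 for PGR and -0.629 to 0.047 for ERBB2. For malignant against benign tissue they were -1.94 to 1.35 and -2.99 to 0.679 for the KRT14 probes, -2.27 to 0.411 for KRT19 and -0.20 to 0.19 for ERBB2. Every member was well above background on every array, but some processed signals were low. On array a they were 38.45 for KRT19 in malignant dog 5, and 22.24 and 25.82 for PGR in malignant dogs 3 and 5. Without background subtraction the PGR levels of malignant dogs 3 and 5 were -2.28 and -2.74. With normexp background correction PGR in malignant against healthy tissue was -1.71.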
